A study of Mus musculus with 40 samples.

Results

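Cholesterol synthesis was followed here through 8 genes of the sterol pathway, Hmgcs1, Idi1, Fdps, Fdft1, Sqle, Lss, Cyp51 and Insig1, in mammary glands of mice that lack the Polycomb proteins EZH1 or EZH2. The genes were taken by symbol from a table of 22552 genes, and all 8 symbols were found in it. Of these, 7 encode enzymes that build cholesterol and 1, Insig1, encodes the protein that holds the pathway in check. None of the 8 is a gene of cholesterol uptake. Genes of that role are described from a separate list of uptake and transport genes, which also holds exporters such as Abcg1. Expression is given as FPKM, a count of fragments divided by transcript length and sequencing depth, and each gene has 1 deposited value for each of 12 groups of animals. With 1 value per group, no value below carries an SD, an n or a p-value, and a difference is described only by its size.

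The 12 groups cover 31 libraries of poly(A) RNA from whole mammary tissue of mice of outbred background, with 2 libraries in 5 of the groups and 3 in the other 7. Controls carried the MMTV-Cre transgene alone, in which the mouse mammary tumour virus promoter drives the Cre recombinase in the gland. The Ezh2 KO group (Ezh2f/f;control) carried floxed Ezh2 with the same transgene, so deletion was aimed at the mammary gland and not at every cell of the tissue. The Ezh1 KO group (E1-/-) came from Ezh1 knockout mice, and the labels do not say whether it also carried the transgene. The group called Ezh1 het Ezh2 KO here (E1+/-;E2f/f;control) had 1 Ezh1 allele left and floxed Ezh2. All 4 genotypes were sampled on days 13 and 18 of pregnancy (p13 and p18) without treatment. Only the control and the Ezh2 KO genotype were sampled as mature virgins aged 12 weeks, each without and with prolactin, the pituitary hormone that acts on the gland through STAT5. In the virgins 1 fat pad was taken under anaesthesia, prolactin was injected at 5 µg per g of body weight after recovery, and the opposite fat pad was taken 2 hours after the injection. Prolactin therefore cannot be told apart from the earlier operation, the anaesthesia, the hours passed or the side of the body.

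Cholesterol is built from acetyl-CoA by the mevalonate pathway. HMG-CoA synthase, the product of Hmgcs1, makes the precursor of mevalonate, isopentenyl units are isomerised by IDI1 and joined to farnesyl diphosphate by FDPS, and squalene synthase, the product of Fdft1, commits farnesyl diphosphate to sterols. Squalene epoxidase (Sqle), lanosterol synthase (Lss) and lanosterol demethylase (Cyp51) then carry squalene to lanosterol and beyond. The enzymes share a transcriptional control by the SREBP factors, which leave the endoplasmic reticulum when sterols are low, while INSIG1 keeps their escort SCAP in place when sterols are high and is itself encoded by an SREBP target gene. In the pregnant gland, the milk-secreting epithelium needs sterols and fatty acids for membranes and for the fat of milk.

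The stretch of 250 bases before the transcription start could be read for 5 of the 8 genes from RefSeq on build GRCm38.p6. Those of Insig1 and Lss are printed because these genes had the widest ranges over the groups, and that of Idi1 because it had the narrowest. All sequences run 5′ to 3′ on the strand of the gene, and capitals mark matches to the sterol element core TCACCNCA, to the E-box CACGTG and to the CCAAT box, on either strand, so a CCAAT box on the other strand reads ATTGG.
Insig1, chr5:28071162-28071411, plus strand: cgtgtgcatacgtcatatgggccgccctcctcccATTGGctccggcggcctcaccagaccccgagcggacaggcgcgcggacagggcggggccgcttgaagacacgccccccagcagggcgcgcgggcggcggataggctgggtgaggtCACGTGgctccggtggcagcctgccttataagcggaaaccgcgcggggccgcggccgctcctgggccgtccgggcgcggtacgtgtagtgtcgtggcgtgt
Lss, chr10:76531355-76531604, plus strand: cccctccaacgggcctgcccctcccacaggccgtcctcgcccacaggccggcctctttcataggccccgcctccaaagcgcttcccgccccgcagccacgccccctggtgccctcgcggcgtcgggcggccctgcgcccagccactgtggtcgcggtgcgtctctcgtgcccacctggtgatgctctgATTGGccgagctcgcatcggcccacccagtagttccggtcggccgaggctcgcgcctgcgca
Idi1, chr13:8885356-8885605, plus strand: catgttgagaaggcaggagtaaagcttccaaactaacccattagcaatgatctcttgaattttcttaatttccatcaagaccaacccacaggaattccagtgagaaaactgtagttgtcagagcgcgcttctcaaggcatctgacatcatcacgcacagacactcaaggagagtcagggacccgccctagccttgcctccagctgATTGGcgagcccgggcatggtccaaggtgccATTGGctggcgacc
The sterol element core had 1 match before Hmgcs1, 137 bases before the start, and 1 before Cyp51, 88 bases before it. Both are shown with their neighbouring bases.
Hmgcs1, chr13:119690203-119690232, plus strand: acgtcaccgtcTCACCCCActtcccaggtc
Cyp51, chr5:4104767-4104796, minus strand: ataggccgagaTCACCTCAgcagcgcgtgg

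The core TCACCNCA was found in 2 of the 5 stretches and in 3.49% of 27025 mouse stretches of the same length. The E-box CACGTG stood before Insig1 alone among the 5, 101 bases before its start, and in 6.05% of all stretches. CCAAT was found before all 5 genes and in 34.5% of all stretches. One more motif, the GC box GGGCGG, is not marked by capitals: it also had a match before each of the 5 genes and was found in 32.9% of all stretches. In these 5 stretches no match of one motif overlapped a match of another. The motifs were chosen from general knowledge with these sequences in view, and a match is a description of letters only.

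Hmgcs1 was listed at 0 in all 12 groups. It was 1 of 1797 genes listed at 0 throughout, while none of 14 genes that all cells use was listed at 0 in any group. Why Hmgcs1 was listed so was not tested, and 7 of the 8 genes passed the filter, which kept the 14273 genes that reached 1 FPKM in at least 1 group.

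Idi1 opens the enzyme series and was the steadiest of the genes, with its highest level 1.75 times its lowest. In virgin controls it stood at 26.99 FPKM without and 16.1 with prolactin, and in virgin Ezh2 KO glands at 23.7 and 17.5. At p13 it read 24.9 in control, 26.8 in both single knockouts and 28.3 in Ezh1 het Ezh2 KO glands. At p18 the values were 23.3, 20.2, 22.0 and 23.7 in the same order. Both glands given prolactin lay below all 10 other groups. Fdps, whose product makes farnesyl diphosphate, read 45.6 and 26.7 FPKM in virgin controls without and with prolactin and 34.6 and 27.8 in virgin Ezh2 KO glands. At p13 it stood at 35.8 in control, 50.2 in Ezh1 KO, 38.0 in Ezh2 KO glands and 63.3 in Ezh1 het Ezh2 KO glands, and at p18 at 68.6, 37.9, 47.3 and 57.3. Prolactin groups were again the lowest, and the control was the highest group at p18 but the lowest at p13.

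Fdft1, at the branch point to sterols, was ordered by stage on the deposited scale. Virgin groups held 33.9 FPKM in control, 26.8 in control with prolactin, 34.5 in Ezh2 KO and 29.0 in Ezh2 KO with prolactin. Pregnant groups read 23.8, 25.2, 17.8 and 23.2 at p13 and 13.1, 13.9, 15.5 and 15.7 at p18, for control, Ezh1 KO, Ezh2 KO and Ezh1 het Ezh2 KO. As deposited, the 3 stages did not overlap, with the virgins highest and p18 lowest. How many of all genes separate by stage in this way was not counted. Of the genes kept, 80.9% were lower at p18 than at p13 in control. For Fdft1 in Ezh2 KO glands, the sign of the difference between p18 and p13 depended on the scaling (-0.29 to 0.29). Sqle, which adds the oxygen that lanosterol synthase needs, had the reverse order between virgin and pregnant glands on the deposited scale. It stood at 14.9 and 10.0 FPKM in virgin controls and 10.1 and 8.12 in virgin Ezh2 KO glands, without and with prolactin. At p13 it read 16.8 in control, 17.9 in Ezh1 KO, 22.0 in Ezh2 KO glands and 19.4 in Ezh1 het Ezh2 KO glands, and at p18 22.9, 13.5, 16.5 and 17.2. Only the p18 Ezh1 KO group, among the 8 pregnant groups, lay within the virgin range.

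Lss, the cyclase that closes the sterol rings, was the lowest of the 7 in all 12 groups and had a 3.34-fold range. Its virgin values were 7.62 and 4.11 FPKM in controls and 6.75 and 4.98 in Ezh2 KO glands, without and with prolactin. At p13 it stood at 4.79 in control, 6.83 in Ezh1 KO, 5.37 in Ezh2 KO glands and 10.5 in Ezh1 het Ezh2 KO glands. At p18 the control held 10.1, against 3.16, 5.10 and 5.48 in the Ezh1 KO, Ezh2 KO and Ezh1 het Ezh2 KO groups. Thus 2 groups stood near 10 FPKM, and the other 10 lay below 8. Cyp51, the demethylase of lanosterol, moved within a 1.87-fold range. It read 8.49 and 7.26 in virgin controls and 7.59 and 6.33 in virgin Ezh2 KO glands, then 10.2, 9.55, 8.93 and 11.2 at p13 and 10.3, 6.0, 7.12 and 9.89 at p18. Its lowest group was the Ezh1 KO at p18, the same group in which Lss was lowest.

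Insig1, the brake on SREBP release, had the widest range of the 7, its highest level being 7.21 times its lowest. Virgin controls held 65.4 FPKM without and 20.8 with prolactin, and virgin Ezh2 KO glands 57.1 and 20.9. At p13 the levels were 35.9 in control, 47.0 in Ezh1 KO, 34.5 in Ezh2 KO glands and 89.5 in Ezh1 het Ezh2 KO glands. At p18 they were 44.2, 12.4, 37.3 and 29.2. The 3 lowest groups were the Ezh1 KO at p18 and both prolactin groups. With 1 value per group no spread is known, so it cannot be said which neighbours in the order of any gene differ.

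**Figure D1:**
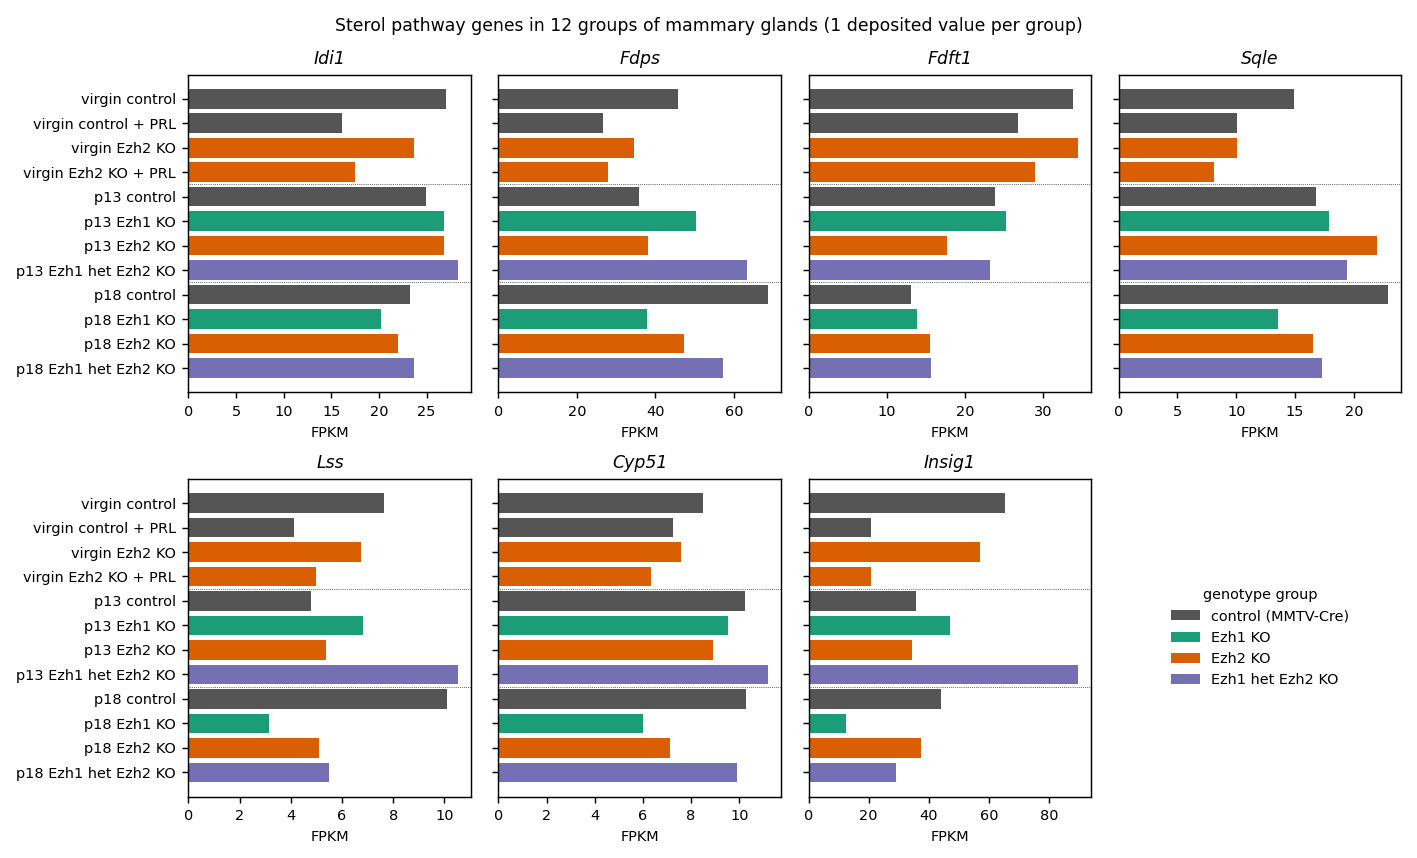
Deposited FPKM (horizontal axes, each starting at 0) of 7 sterol pathway genes in 12 groups (PRL, prolactin), with 1 bar per group and no error bars because 1 value per group was available; Hmgcs1, listed at 0 in every group, is left out. Insig1 runs from 12.4 in Ezh1 KO glands at p18 to 89.5 in Ezh1 het Ezh2 KO glands at p13, while Idi1 stays between 16.1 and 28.3.

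Groups were compared by subtracting their values of log2(FPKM + 1), which makes differences of weakly expressed genes look smaller, and a difference of 1 or more in size was counted. Folds are ratios of FPKM. Across the 20 comparisons, 10 of 140 pairs of a gene and a comparison passed this size, 8 of them for Insig1. The share of all genes that passed it is given below as the background of each comparison. It ran from 1.04% (upward only, Ezh2 KO against Ezh1 KO glands at p18) to 22.6% (either direction, control at p18 against p13). Whether 10 pairs are more than other genes would give was not tested.

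Under prolactin all 7 genes were lower in both genotypes, under every scaling tried. In controls Insig1 was 3.15-fold lower (difference -1.61), and in Ezh2 KO glands 2.73-fold lower (-1.41). Among the enzymes in controls, Lss was 1.86-fold lower, Fdps 1.71-fold, Idi1 1.67-fold, Sqle 1.48-fold, Fdft1 1.26-fold and Cyp51 1.17-fold. The enzymes of Ezh2 KO glands were lower by 1.19-fold for Fdft1 to 1.36-fold for Lss. Insig1 was in each genotype the only 1 of the 7 past the counted size, which 1.72% of all tested genes passed downward in controls and 4.08% in Ezh2 KO glands. The median over the 7 was -0.71 in controls and -0.30 in Ezh2 KO glands, against 0.00 over all genes in each, of which 49.3% and 48.6% were lower. Whether the response differs between the genotypes was not tested.

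The other genes of the pathway were read from lists chosen for their textbook role. Of 12 further cholesterol synthesis genes, 11 were lower with prolactin in controls (median -0.50) and 7 in Ezh2 KO glands (median -0.11). Sc5d, a late desaturase, went from 56.3 to 24.4 FPKM in controls and from 38.5 to 19.8 in Ezh2 KO glands. Dhcr7, the last reductase of one branch of the pathway, went from 8.71 to 4.23 and from 11.4 to 5.02. Past the counted size were Sc5d in controls and Dhcr7 in Ezh2 KO glands. Among 10 genes of sterol sensing, Srebf1, which encodes the SREBP-1 factors, went from 77.0 to 35.9 FPKM in controls and from 70.0 to 46.8 in Ezh2 KO glands. Insig2, which encodes the second INSIG protein, stood on the other side, at 32.1 without and 46.3 with prolactin in controls and 25.9 and 38.2 in Ezh2 KO glands. The sign of the median of these 10 genes depended on the scaling or pseudocount in controls (-0.26 to 0.009). In Ezh2 KO glands that median was lower throughout (-0.28 to -0.07). Of 12 uptake and transport genes none passed the size in either genotype. Their medians were 0.12 in controls and 0.18 in Ezh2 KO glands, and both signs depended on the scaling (-0.06 to 0.21 and -0.02 to 0.22). For 10 fatty acid synthesis genes the medians were -0.93, with 4 past the size downward, and -0.25, with 2. Scd2, a stearoyl-CoA desaturase, went from 87.6 to 27.6 FPKM in controls and from 94.4 to 41.7 in Ezh2 KO glands.

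Marker genes of other cell types also differed between the glands taken before and after prolactin. Lymphocyte markers, of which all 8 passed the size in each genotype, were higher after prolactin in controls (sum 14.2 to 187 FPKM) and lower in Ezh2 KO glands (229 to 4.62). Muscle markers were lower in 9 of 10 in each genotype, with 8 and 5 past the size, and the tenth was past it upward, so that their sums were 64.4 and 280 FPKM in controls and 40.5 and 436 in Ezh2 KO glands. The sum of 10 adipocyte markers was 49526 and 55445 FPKM in controls and 35143 and 58307 in Ezh2 KO glands, and 1 of the 10 passed the size in each, upward. Of 6 brown fat markers 3 passed the size upward in controls and 2 in Ezh2 KO glands, with sums of 334 and 547, then 1275 and 1684. Basal markers had 2 of 8 past it upward in each, with sums of 206 and 387, then 273 and 490. Milk protein genes had 5 of 15 past it upward in controls (433 and 1438), and 2 upward and 1 downward in Ezh2 KO glands (1384 and 864). Liver markers had 0 and 6 of 8 past it downward, and erythroid markers 2 and 0 of 5. Ucp1, the uncoupling protein that defines brown fat, stood at 2.0 FPKM without and 67.8 with prolactin in controls and at 210.0 and 347 in Ezh2 KO glands. No marker was at 0 in these groups except 1 milk protein gene in controls without prolactin, and the part of any of these lists in the sterol result was not tested. In whole tissue, fewer cells of a type and less RNA per cell cannot be told apart.

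**Figure D2:**
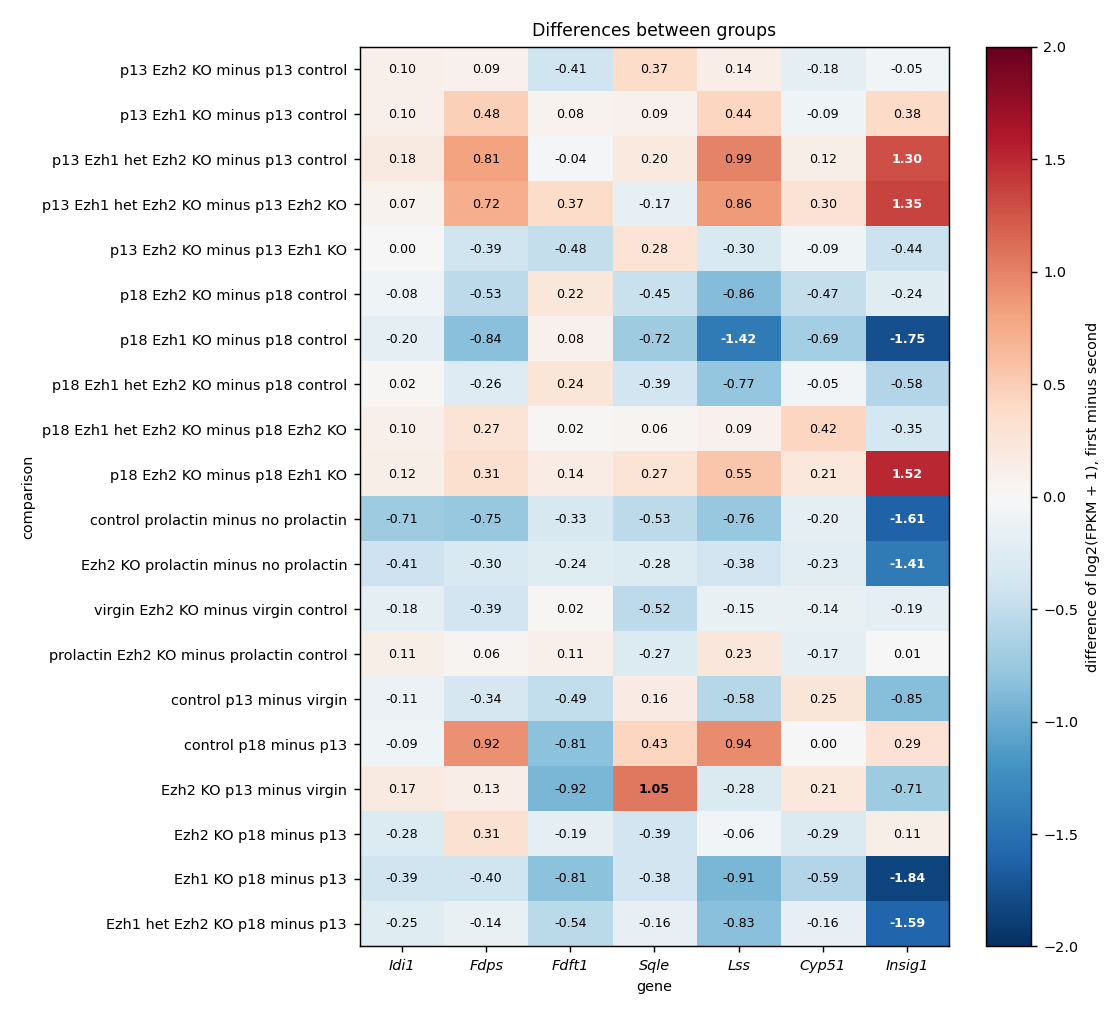
Differences of log2(FPKM + 1), first minus second group, for 7 sterol pathway genes (columns) in 20 comparisons (rows), red where the first group is higher and blue where it is lower; bold numbers are 1 or more in size. The column of Insig1 holds 8 of the 10 bold values, and both prolactin rows are blue throughout.

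At p13 the Ezh1 het Ezh2 KO glands stood apart from the control in 3 genes. Insig1 was 2.49-fold higher (difference 1.30), Lss 2.20-fold (0.99) and Fdps 1.77-fold (0.81). The other 4 differed little, from 0.20 for Sqle to -0.04 for Fdft1, and Fdft1 turned to higher under 3 of 4 other scalings. Insig1 alone passed the counted size, which 3.12% of all genes passed upward, and 1 or 2 further genes passed it with a pseudocount of 0.1 or after rescaling. The median over the 7 was 0.20, against -0.01 over all genes. Against the Ezh2 KO group, which differs from it by the Ezh1 allele, Insig1 was also higher (1.35, background 2.80% upward), as were Lss (0.86) and Fdps (0.72).

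In the single knockouts at p13 none of the 7 passed the size, upward or downward, where 4.38% of all genes did in Ezh1 KO and 9.23% in Ezh2 KO glands. Their medians were 0.10 and 0.09. In Ezh1 KO glands the median stayed above control under every scaling and pseudocount (0.09 to 0.47). As deposited, Cyp51 alone of the 7 was lower there than in control, where 46.8% of all genes were higher. Direct comparison of Ezh2 KO with Ezh1 KO glands gave a median of -0.30 against 0.01 over all genes, with 5 of 7 lower in Ezh2 KO against 47.8% of all genes, and none past the size (background 4.93%). In the Ezh2 KO comparison with control the sign of the median depended on the scaling.

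Of the further synthesis genes at p13, 11 of 12 also stood above control in Ezh1 het Ezh2 KO glands, against 48.7% of all genes. Their median was 0.30, and 3 were past the size. Pmvk, the phosphomevalonate kinase, stood at 20.4 FPKM in control and 49.8 in Ezh1 het Ezh2 KO glands. Tm7sf2, a sterol reductase, stood at 2.40 and 6.79, and Nsdhl, which acts after Cyp51 in demethylation, at 12.0 and 25.0. The fatty acid list differed by far more, with a median of 2.68 and 9 of 10 past the size. Fasn, the fatty acid synthase, held 39.9 FPKM in control and 772 in Ezh1 het Ezh2 KO glands. It also stood above control in the single knockouts, at 435 in Ezh1 KO and 299 in Ezh2 KO glands. The median of the fatty acid list was above control there too, under every scaling and pseudocount (1.91 to 2.33 and 1.16 to 1.68). Of the uptake and transport genes, 2 passed the size, both downward: Abcg1, a cholesterol exporter, at 15.7 in control and 5.93, and Lrp1, a lipoprotein receptor, at 65.1 and 28.1. In Ezh1 KO and Ezh2 KO glands Abcg1 stood at 4.11 and 4.72 and Lrp1 at 30.7 and 21.9, also below control. All of these comparisons share the p13 control group, so a low or high control value enters each of them.

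The control group at p13 also held most muscle RNA of all groups. Its 10 muscle markers summed to 10057 FPKM, against 2490 in Ezh1 KO, 18.2 in Ezh2 KO glands and 22.8 in Ezh1 het Ezh2 KO glands, and all 10 passed the size in the last comparison. Adipocyte markers summed to 31186 in control and 22105 in Ezh1 het Ezh2 KO glands, with 2 of 10 past the size downward, while 8 of 8 lymphocyte markers were past it upward (sums of 9.80 and 55.4). Liver markers, which a gland should lack, summed to 399 in Ezh1 KO glands and to between 6.91 and 33.4 in the other groups at p13. No marker of muscle, adipocytes or lymphocytes was at 0 at p13, and their part in the differences of the sterol genes was not tested. Among epithelial lists, luminal markers summed to 1508 in control and 1522 in Ezh1 het Ezh2 KO glands with 0 of 8 past the size, basal markers to 1177 and 709 with 2 of 8 past it downward, and milk protein genes to 11148 and 48128 with 11 of 15 past it upward. Erythroid markers summed to 2063 and 447, with 3 of 5 past it downward and 1 upward. The upward marker was Hba-a2, at 0.0620 in control and 174, while Hba-a1, the other alpha-globin gene, stood at 1320 and 0.340. How reads were shared between this pair of genes is uncertain, so their opposite directions cannot be read as separate results. The part of these lists was not tested either.

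At p18, as deposited, the control stood highest for Sqle, Fdps, Lss, Cyp51 and Insig1, and the Ezh1 KO lowest for those 5 and for Idi1. For Insig1 the sign of the difference between Ezh2 KO and control glands depended on the scaling (-0.32 to 0.07). Against control, Ezh1 KO glands had 3.56-fold less Insig1 (difference -1.75) and 3.20-fold less Lss (-1.42). Both passed the size, which 1.39% of all genes passed downward, and Lss missed it at a pseudocount of 5 (-0.89). Fdps was 1.81-fold lower, Cyp51 1.71-fold, Sqle 1.69-fold and Idi1 1.15-fold, while Fdft1 differed by 0.08, a value whose sign depended on the scaling. The median over the 7 was -0.72, against 0.00 over all genes. This group comprised 2 libraries, the other p18 groups 3.

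Ezh2 KO and Ezh1 het Ezh2 KO glands lay between these groups for most of the enzymes. Against control the medians were -0.45 and -0.26, and none of the 7 passed the size in either comparison (background 4.53% and 2.77%). Lss was the gene farthest below control in both, at -0.86 and -0.77. Compared directly, Ezh2 KO glands held more of all 7 genes than Ezh1 KO glands under every scaling, against 47.1% of all genes as deposited, with a median of 0.27 against -0.01 and 1 gene past the size, Insig1, at 1.52 (background 1.04% upward). Ezh1 het Ezh2 KO against Ezh2 KO glands gave a median of 0.09, whose sign depended on the scaling, and none past the size (background 2.56%). The 3 knockout comparisons share the control group, so a low or high control value enters all of them.

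Of the further synthesis genes, 9 of 12 were lower in Ezh1 KO than in control glands at p18 (median -0.34), against 48.5% of all genes. None of the 12 passed the size. Hsd17b7, a sterol reductase, stood at 15.2 FPKM in control, 7.18 in Ezh1 KO, 5.33 in Ezh2 KO glands and 8.34 in Ezh1 het Ezh2 KO glands, and it passed the size in the Ezh2 KO comparison. Sc4mol, the methyl oxidase also called Msmo1, stood at 16.6 in control and 9.32 in Ezh1 KO glands. Of the sensing list, 8 of 10 were lower in Ezh1 KO glands (median -0.27), among them Scap, the escort of SREBP, at 27.6 and 16.6, Srebf1 at 86.7 and 53.0 and Srebf2, the gene of SREBP-2, at 19.2 and 12.9. As deposited, these genes also lay below control in Ezh2 KO and Ezh1 het Ezh2 KO glands. Scap stood there at 16.9 and 18.5, Srebf1 at 67.1 and 64.7 and Srebf2 at 15.2 and 14.5. The fatty acid list had a median of -0.86 with 4 of 10 past the size. Acly, which supplies cytosolic acetyl-CoA, stood at 228 in control, 85.1 in Ezh1 KO, 127 in Ezh2 KO glands and 160 in Ezh1 het Ezh2 KO glands. Uptake and transport genes had a median of -0.25 and none past the size. For 5 genes of the other branches of the mevalonate pathway, such as Ggps1 and Coq2, the median was -0.24. It had been 0.19 in Ezh1 het Ezh2 KO glands at p13 and 0.00 and 0.16 under prolactin. The signs under prolactin depended on the scaling, and none of the 5 genes was past the size in these 4 comparisons. Lipa, the lysosomal lipase that frees cholesterol from its esters, stood at 263 in control and 156 in Ezh1 KO glands. It was lower still in Ezh2 KO glands, at 127, and stood at 184 in Ezh1 het Ezh2 KO glands.

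Marker sums at p18 moved as well. Adipocyte markers summed to 5826 FPKM in control and 10600 in Ezh1 KO glands, and all 10 were higher, 2 of them past the size. Milk protein genes were lower in 13 of 15, with 4 past the size. All 10 muscle markers passed it upward, at sums of 51.8 and 169. Erythroid markers had sums of 54.3 and 355, with 4 of 5 past it upward, and basal markers of 1158 and 774, with 1 of 8 past it downward. Luminal markers had sums of 2075 and 2012 with 0 of 8 past the size. No marker of these lists was at 0, and the part of these cell types in the sterol result was not tested.

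**Figure D3:**
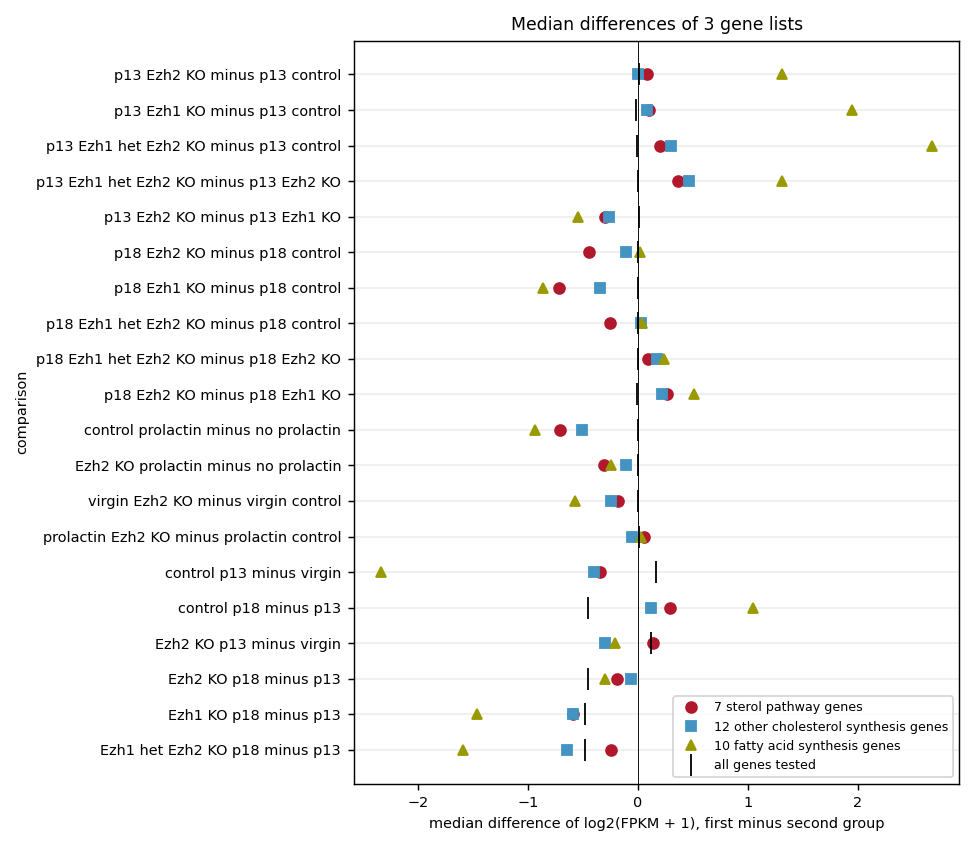
Median difference of log2(FPKM + 1), first minus second group, in 20 comparisons, for the 7 sterol pathway genes (circles), 12 further cholesterol synthesis genes (squares), 10 fatty acid synthesis genes (triangles) and all 14273 genes tested (vertical ticks). The sterol lists stay between -0.72 and 0.47, whereas the fatty acid list runs from -2.33 to 2.68.

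Across stages the table shifted as a whole, with a median over all genes of -0.46 from p13 to p18 in control and, in the other genotypes, of -0.45 (Ezh2 KO), -0.48 (Ezh1 KO) and -0.48 (Ezh1 het Ezh2 KO). The 15 milk protein genes took 1.66% of the summed FPKM in control at p13 and 46.9% at p18. Against this shift, Fdps (0.92) and Lss (0.94) were higher at p18 than at p13 in control, and the median over the 7 was 0.29, a value whose sign depended on the scaling. None of the 7 passed the size there (background 22.6%). In Ezh1 KO glands all 7 were lower at p18, as were 86.5% of all genes, with a median of -0.59, and Insig1 alone passed the size, at -1.84 (background 12.1% downward). In Ezh1 het Ezh2 KO glands all 7 were lower too, as were 82.2% of all genes, with a median of -0.25 and Insig1 at -1.59 (background 16.0% downward). Both counts of 7 lower broke down when the upper quartile was set equal, to 4 and 3 of 7. In Ezh2 KO glands 5 of 7 were lower, against 88.9% of all genes, and none passed the size (background 5.20%).

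From the virgin to p13, the control had a median of -0.34 over the 7, against 0.17 over all genes, with none past the size (background 11.9%). Ezh2 KO glands had 0.13 against 0.12, and the sign of that 0.13 depended on the scaling (-0.18 to 0.20). In these glands Sqle passed the size upward, at 1.05 (background 11.0%). That value was below 1 at a pseudocount of 5 and in 3 of 4 rescalings, at 0.75 to 0.96. Between virgin genotypes the 7 genes had a median of -0.18 without prolactin, with 6 of 7 lower in Ezh2 KO glands against 48.9% of all genes, whose median was 0.00, and 0.06 with it, against 0.01. None of the 7 passed the size in either comparison (background 4.26% and 3.48%), and the sign of both medians depended on the scaling. The transport genes differed between stages in both directions. In control, Abcg2, a transporter of the secretory epithelium, stood at 21.3 FPKM at p13 and 127 at p18, and Lipa at 53.1 and 263, while Lrp1 stood at 65.1 and 10.4.

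Most of the genes varied together over the 12 groups. The Pearson correlation of each gene with the mean of the others, in log2(FPKM + 1), was 0.87 for Insig1, 0.83 for Lss, 0.83 for Idi1, 0.82 for Cyp51, 0.67 for Fdps and 0.57 for Sqle. For Fdft1 it was -0.13. The closest pair was Lss and Insig1, at 0.88. These are descriptions over n = 12 groups whose values share stage, tissue makeup and scaling, and they carry no p-value.

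Fdft1 went with the adipocyte markers instead. Its correlation with the summed adipocyte markers was 0.91 and with the milk protein sum -0.95, while Sqle had -0.74 with the adipocyte sum. Fdft1 shares 774 bases of its 36538 with Ctsb, the gene of the lysosomal protease cathepsin B, in the RefSeq annotation. Ctsb ranged from 160 to 526 FPKM, and its correlation with Fdft1 over the 12 groups was 0.97. The ratio of Fdft1 to Ctsb stayed between 0.0550 and 0.0830. Use of strand in counting is not stated in the sources used here, so reads of the 2 genes cannot be told apart where they overlap, and the Fdft1 values are uncertain. Whether Ctsb reads enter the Fdft1 level was not tested. Fdft1 also overlaps Gm51283, and Fdps, Lss and Insig1 each overlap 1 annotated gene, Gm22935, 4930483K19Rik and Gm35223, with the same limit.

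**Figure D4:**
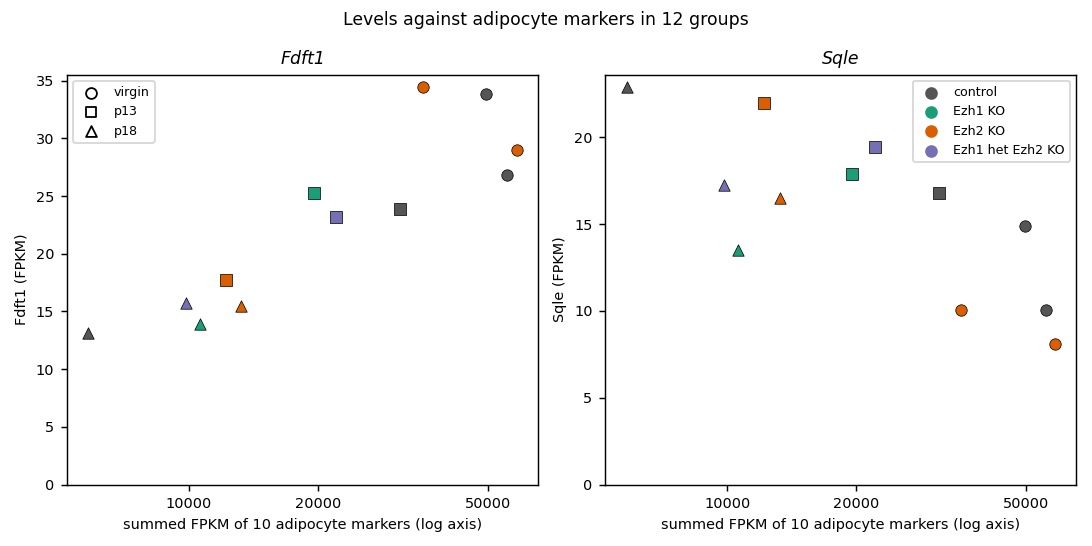
FPKM of Fdft1 (left) and Sqle (right) on vertical axes that start at 0, against the summed FPKM of 10 adipocyte markers on a log axis, with 1 point per group, shape for stage and colour for genotype. Fdft1 is higher where the adipocyte sum is higher (r = 0.91) and Sqle lower (r = -0.74), over n = 12 groups. Both r were computed on log2 values of the gene and of the sum, not on the FPKM of the vertical axes.

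Among 10628 protein-coding genes that reached 5 FPKM in at least 1 group, those most like the mean of the members over the 12 groups included Amd1 (Pearson r = 0.95), F630110N24Rik (0.86), Srebf1 (0.86), Ppt2 (0.85), Plekhh3 (0.83), Acly (0.82) and Ctsc (0.82). Srebf1 read 35.9 FPKM in control with prolactin and 97.3 in Ezh1 het Ezh2 KO glands at p13, its lowest and highest groups. Acly, the ATP citrate lyase, ranged from 55.0 in control at p13 to 397 in Ezh1 het Ezh2 KO glands at p13. Amd1, a gene of polyamine synthesis, stood at 0.0145 and 0.0124 in the prolactin groups and 0.0111 in Ezh1 KO glands at p18, against 1.40 to 7.53 elsewhere. Its near-identical copy Amd2 read 46.7, 32.7 and 26.4 in those 3 groups, within its range of 21.7 to 67.3 over the 12 groups, so the share of reads given to each copy is uncertain. Of the further synthesis list, Dhcr7 came closest to the members, at 0.77.

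**Figure D5:**
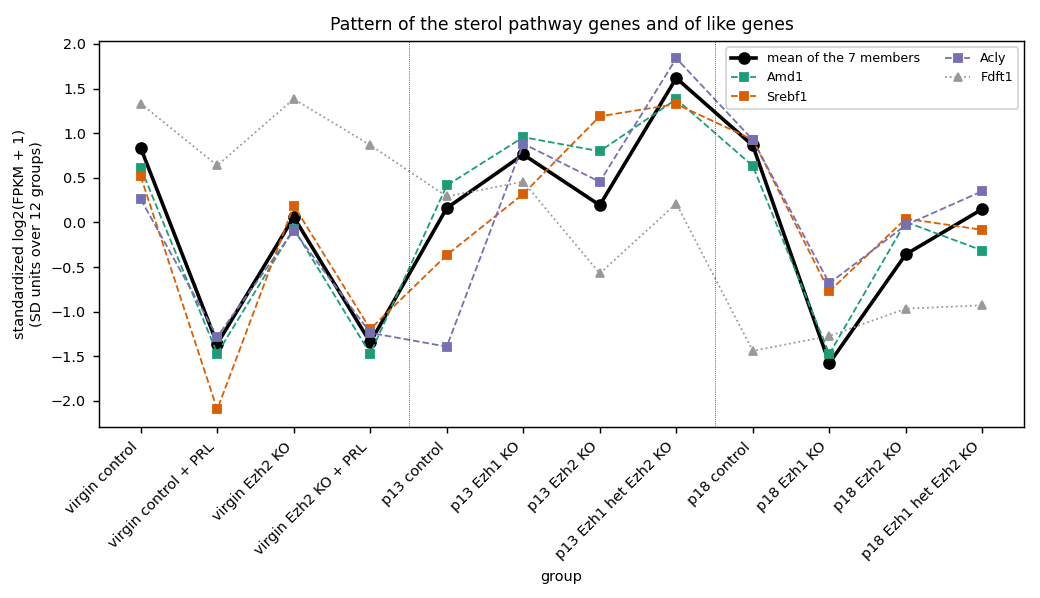
Standardized log2(FPKM + 1), in SD units over the 12 groups (vertical axis), of the mean of the 7 sterol pathway genes (black), of Amd1, Srebf1 and Acly, and of Fdft1 (grey), by group (horizontal axis); lines only guide the eye. The mean is highest in Ezh1 het Ezh2 KO glands at p13 and lowest in Ezh1 KO glands at p18 and in both prolactin groups. Fdft1 lies below it in the p18 control and above it in all virgin groups, those given prolactin included.

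Checks of the whole table bear on these results as follows. Ezh1 stood at 1.06 and 0.627 FPKM in the Ezh1 KO groups at p13 and p18, against 14.7 and 7.37 in the controls, and at 6.17 and 3.41 in the Ezh1 het Ezh2 KO groups. Ezh2 stood at 13.7 and 6.41 in the Ezh2 KO groups at p13 and p18, against 12.9 and 10.0 in the controls. In virgins it stood at 5.55 in Ezh2 KO and 4.98 in control glands without prolactin and at 4.64 and 6.74 with it. The level of Ezh2 in whole tissue therefore does not check the Ezh2 KO labels. Luminal, basal and adipocyte markers were present in all 12 groups, with none at 0. Summed FPKM ran from 581531 to 1151971 over the groups, and read depth is unknown.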

How the data were processed

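Poly(A) RNA of 31 whole-gland libraries in 12 groups was used; 9 chromatin immunoprecipitation libraries were not analysed here. The authors deposited FPKM for 22552 genes with 1 column per group. No source used here says how libraries were combined. Per the submitters' processing notes, the build was mm9 and the tools were TopHat, Cufflinks and Cuffdiff, next to Bowtie, BWA and HOMER, and CASAVA, FastQC and Trim Galore, with no roles. Read depth is unknown, and with 1 value per group no test was run.

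Differences were computed as log2(FPKM + 1), with genes kept at 1 FPKM or more in at least 1 group (14273 genes), and a size of 1, a factor of 2 in FPKM + 1, was counted. Python 3.11.15 with pandas 2.3.3, NumPy 2.4.6 and matplotlib 3.10.9 was used, and the computation was tested on simulated data. The members and the gene lists were chosen with earlier results of these data known. Named genes were the 8 members, up to 3 genes of each other list with the largest differences among those at 5 FPKM or more in a compared group, the 8 genes most correlated with the members, and Ezh1 and Ezh2; further list members named beside them were chosen after their values were seen. Msmo1 was read under its older symbol Sc4mol. Promoters and gene overlaps came from RefSeq (GRCm38.p6). Alternatives were other pseudocounts, filters, scalings and a larger threshold. A few genes are not reported here.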

Additional observations from a re-analysis of the deposited data

Results flagged for a closer look

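In 3 cases a gene stood on opposite sides of control at p13 and p18 in the same genotype, with at least 1 of the differences past 1. How many of all genes meet this rule was not counted, and the cases share the control value of each day. The difference between days was not tested, since each group had 1 value. Lss in Ezh1 KO glands differed from control by 0.436 at p13 and by -1.42 at p18. Insig1 in Ezh1 KO glands differed by 0.381 at p13 and by -1.75 at p18. Insig1 in Ezh1 het Ezh2 KO glands differed by 1.30 at p13 and by -0.584 at p18.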

How the results depend on the processing

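No paired analysis was possible because the deposited columns hold 1 value per group and carry no replicate numbers; for the same reason the replicate block, leaving out each replicate and limma could not be run. Over 9 alternatives, 19 of 20 median differences of the 7 genes shifted on the log2 scale by less than the log2 of 1.5, and the other, Ezh1 het Ezh2 KO at p18 against p13, was -1.02 when every group was scaled to a common sum, against -0.25 as deposited. In ratio the small medians moved more: from 0.09 to 0.47 for Ezh1 KO and 0.17 to 0.52 for Ezh1 het Ezh2 KO against control at p13, from -0.53 to -0.15 for Ezh2 KO against control at p18 and from -1.18 to -0.18 for Ezh1 KO at p18 against p13. The sign of the median depended on the setting in 8 of 20 comparisons, and so did that of 44 of 140 pairs of a gene and a comparison. Of the 10 pairs past 1, none reversed, 8 stayed past 1 in all alternatives other than the threshold of 2, and 0 passed a threshold of 2. Scaling moved the median over all genes by -0.61 to 0.47. Relative to that median, the members stood at -0.74 to -0.47 for prolactin in control, at -0.35 to -0.24 in Ezh2 KO glands, at -0.78 to -0.59 for Ezh1 KO against control at p18 and at 0.17 to 0.24 for Ezh1 het Ezh2 KO against control at p13. The share of all called genes that were higher was 73.5% for prolactin in control and 58.7% on the common sum, and 49.4% for Ezh1 het Ezh2 KO against control at p13 and 69.6% on the ubiquitous gene scale. It was 40.2% for prolactin in Ezh2 KO glands and 26.2% on the common sum, and 46.6% for Ezh1 KO against control at p18 and 26.5% on the sum without milk proteins. Depth is unknown, so counting error could not be given.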
